A study of Mus musculus with 12 samples.

Results

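Formative pluripotency is the stage between the naive ESC and the cell that is ready for germ layer commitment, and a small set of regulators is switched on or raised on entry into it. The replication of 7 such genes, Otx2, Dnmt3a, Dnmt3b, Pou3f1, Lef1, Sall2 and Zic2, is described here. They were chosen by name from what is known of formative cells, by a rule that uses no measured value, and are 7 of 21755 protein-coding genes (GENCODE M21, chromosome Y left out). OK-seq measures DNA replication and not RNA, so the label of these genes as formative could not be checked against an expression level.

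OK-seq was done in naive mouse ESCs, kept in LIF and 2i, and in EpiLCs, the formative cells obtained after both were withdrawn. Each state was measured in 3 genotypes, the KMT2C KO (the control), the double knockout (KMT2C/D dKO) and the double catalytic dead (KMT2C/D dCD), with 2 replicates each and 12 samples in all. KMT2C and KMT2D place H3K4me1 at enhancers. Every genotype lacks normal KMT2C, and no wild-type library belongs to the series. According to the methods, KMT2D in the dKO was removed by 4-hydroxytamoxifen acting on Cre ER in KMT2C KO cells with a conditional KMT2D, and those cells have a mixed C57BL/6 and 129 background. The catalytic mutant KMT2D came from male R1 cells of a 129 background, so genotype and parent line cannot be told apart where dCD is compared with the control. The 2 replicates of each condition are summed in the values used, which leaves 6 libraries and no spread between replicates. No test between conditions was run. Every interval given is a 95% interval of counting error (Wilson for a share, Newcombe for a difference), and it compares libraries rather than conditions. A difference is called here when its interval leaves out 0.

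Okazaki fragments are the short pieces in which the lagging strand is made, and the strand they map to shows which way the fork that made them was moving. Forks that move rightward give reads on the Crick strand and forks that move leftward give reads on the Watson strand. Where replication starts, forks leave in both directions, so the share of rightward forks steps up from left to right, and where forks meet it steps down. The share of reads from forks moving in the direction of transcription is called the co-directional share, which is the Crick share for a gene on the plus strand and the Watson share for a gene on the minus strand. Strand bias at a TSS is the co-directional share in the 50 kb downstream minus that in the 50 kb upstream, in percentage points.

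Otx2, a homeodomain factor of the early epiblast, lies on chr14:48657677-48673819 (mm10, minus strand). Pou3f1, a POU-domain factor also known as Oct6, lies on chr4:124656807-124660655 (plus strand). Sall2, a zinc finger factor of the spalt family, lies on chr14:52311172-52328762 (minus strand). Zic2, a zinc finger factor of the Zic family, lies on chr14:122475435-122479852 (plus strand). These 4 transcription factor genes are short, between 3.85 and 17.6 kb. Lef1 encodes the HMG-box partner of beta-catenin that carries the Wnt signal to DNA, and is long, at 114 kb (chr3:131110471-131224356, plus strand). Dnmt3a (chr12:3806007-3914443, plus strand, 108 kb) and Dnmt3b (chr2:153649450-153687730, plus strand, 38.3 kb) encode the de novo DNA methyltransferases, which set new methylation as cells leave the naive state.

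The promoters are shown because strand bias is measured around start sites. The sequences are from RefSeq (GRCm38.p6), give the 250 bases before a RefSeq start site of the gene 5′ to 3′ on the strand of transcription, and have each CpG in capitals. RefSeq promoters matched 5 of the 7 genes, and Pou3f1 and Zic2 had no entry in the table. For each gene a stretch that holds none of its annotated exons was taken.
Dnmt3a, chr12:3806730-3806979, plus strand: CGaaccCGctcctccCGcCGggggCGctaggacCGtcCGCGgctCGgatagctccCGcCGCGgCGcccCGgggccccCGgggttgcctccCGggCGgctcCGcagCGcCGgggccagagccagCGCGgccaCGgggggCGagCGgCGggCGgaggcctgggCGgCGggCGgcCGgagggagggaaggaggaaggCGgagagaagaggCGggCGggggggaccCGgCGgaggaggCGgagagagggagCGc
Dnmt3b, chr2:153649199-153649448, plus strand: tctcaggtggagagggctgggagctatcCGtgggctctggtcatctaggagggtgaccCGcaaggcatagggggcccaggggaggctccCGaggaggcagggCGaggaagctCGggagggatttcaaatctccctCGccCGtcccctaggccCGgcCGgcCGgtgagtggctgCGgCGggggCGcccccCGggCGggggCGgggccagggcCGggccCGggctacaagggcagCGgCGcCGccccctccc
Lef1, chr3:131110073-131110322, plus strand: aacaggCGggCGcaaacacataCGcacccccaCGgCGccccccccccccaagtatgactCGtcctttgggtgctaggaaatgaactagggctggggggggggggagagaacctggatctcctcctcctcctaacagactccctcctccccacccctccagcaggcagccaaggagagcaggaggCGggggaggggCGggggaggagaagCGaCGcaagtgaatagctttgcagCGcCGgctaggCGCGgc
Otx2, chr14:48667645-48667894, minus strand: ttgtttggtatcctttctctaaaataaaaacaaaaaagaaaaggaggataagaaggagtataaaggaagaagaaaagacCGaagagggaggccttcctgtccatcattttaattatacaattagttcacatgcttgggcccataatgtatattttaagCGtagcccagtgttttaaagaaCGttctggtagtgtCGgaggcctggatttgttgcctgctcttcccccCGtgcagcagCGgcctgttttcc
Sall2, chr14:52316324-52316573, minus strand: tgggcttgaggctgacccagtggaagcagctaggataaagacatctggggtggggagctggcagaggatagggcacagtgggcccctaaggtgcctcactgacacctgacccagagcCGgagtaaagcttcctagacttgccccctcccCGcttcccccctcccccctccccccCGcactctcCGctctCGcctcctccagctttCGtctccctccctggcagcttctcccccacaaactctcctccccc
The motif searched was CG, which reads the same on both strands. The Dnmt3a stretch held 38 CpGs, a number reached by 1.89% of the 32619 RefSeq promoters, whose median was 6. The Dnmt3b stretch held 21 CpGs, reached by 16.5% of promoters, and the Lef1 stretch 14, reached by 29.6%. Lef1 had other stretches without exons, with 11, 6 and 5 CpGs, which were not printed, so the one shown is its richest. The Otx2 stretch, 6175 bases inside the GENCODE start of the gene, held 6, as many as the median promoter, and so did the Sall2 stretch, which lies 12439 bases inside the GENCODE start. Stretches that reach into exons were not printed either. Among them, the Sall2 stretch at the GENCODE start held 0 CpGs and the Otx2 stretch at the principal start held 14.

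Depth differed between states. The naive libraries held 3652593 to 4405360 reads and the EpiLC libraries 11398128 to 13591646. A 50 kb window beside the TSS of one of the 7 genes held 63 to 149 reads in naive libraries and 253 to 411 in EpiLC libraries, so naive values of a single gene have wide intervals. The overall swing of fork direction along the genome (the SD of the Crick share among 50 kb bins, less the counting variance) was also unequal, at 12.6, 13.3 and 16.5 points in the naive control, dKO and dCD and at 9.73, 10.6 and 12.3 points in the EpiLC libraries. Its part in the differences between libraries was not tested beyond the rescaled values given below. The reads carry no molecular identifiers and PCR copies are not separate molecules, so the intervals cover counting error only.

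The 7 genes together showed a positive strand bias at their TSSs in every library, and no difference in it between states or genotypes was called at the settings used here, though some were under the other settings given below. With the reads of the 7 genes added, strand bias was 13.9 points (9.19 to 18.6) in the naive control, 14.0 (8.95 to 19.0) in the naive dKO and 16.9 (11.6 to 22.1) in the naive dCD. In EpiLCs it was 15.3 (12.3 to 18.1), 15.1 (12.3 to 17.8) and 18.1 (15.3 to 20.8). The 20950 protein-coding genes whose 2 windows held 10 reads or more in all 6 libraries gave 6.71, 6.73 and 7.61 points in naive libraries and 4.81, 5.24 and 5.77 in EpiLC libraries when added up in the same way.

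**Figure D1:**
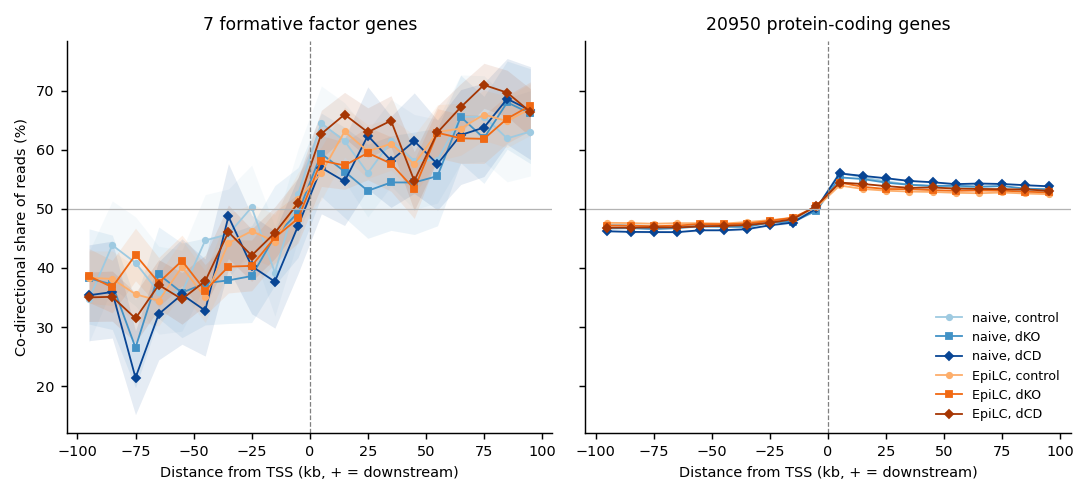
Co-directional share of OK-seq reads (%) in 10 kb windows by distance from the TSS (kb), for the 7 formative factor genes added up (left) and for 20950 protein-coding genes added up (right), with one line per library and shading for the 95% counting interval. In all 6 libraries the share upstream of the 7 genes lies mostly below 50% and the share downstream above it, a wider step than over all genes.

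EpiLC minus naive was 1.33 points (-4.15 to 6.86) in the control, 1.06 (-4.63 to 6.82) in the dKO and 1.18 (-4.68 to 7.14) in the dCD, and none of the 3 was called. These 3 differences share no library. With the reads of the 3 genotypes added, strand bias was 14.9 points in naive libraries and 16.2 in EpiLC libraries, a difference of 1.34 (-1.95 to 4.65).

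None of the differences from the control in strand bias was called for the 7 genes added up. In naive libraries, dKO minus control was 0.0789 points (-6.79 to 6.93) and dCD minus control 3.005 (-4.04 to 10.01). In EpiLC libraries they were -0.191 (-4.20 to 3.82) and 2.85 (-1.13 to 6.84). The change between states in the dKO minus that in the control was -0.269 points (-8.21 to 7.68), and for the dCD it was -0.151 (-8.21 to 7.95). These intervals leave room for a change of several points in either direction. Some calls appeared under other settings. The dCD change between states was 5.68 with shares rescaled to equal swing, naive dCD minus control was 5.10 with windows of 100 kb, and EpiLC dCD minus control was 4.13 with windows of 100 kb and 5.09 without Lef1.

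Taken on one side of the TSS alone, the share over the 7 genes added up had a called difference in 4 of 14 comparisons. Downstream, it was 4.42 points higher (0.384 to 8.51) in EpiLC than in naive dCD and 3.10 higher (0.316 to 5.88) in the EpiLC dCD than in the control. In naive libraries the dKO minus control difference downstream was -4.81 (-9.58 to -0.0145), and the dCD minus control difference upstream was -5.26 (-10.3 to -0.122). These calls were kept in 11, 8, 6 and 7 of 15 alternatives. One-sided shares were not computed over all genes, so the 4 calls have no background to set them against.

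OK-seq reads carry a preference that follows the T minus A content of each 1 kb bin, and genes have a T minus A skew that turns at the TSS. With the fitted preference taken off, the summed strand bias of the 7 genes was 8.005, 7.55 and 10.9 points in the naive control, dKO and dCD and 11.3, 9.93 and 13.3 in the EpiLC libraries. The same step took the median over all genes from 6.11 to 3.05 points in naive control cells and from 4.43 to 2.32 in control EpiLCs.

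The 7 genes were far from alike. Strand bias was above 0 in 40 of the 42 pairs of gene and library and its interval lay above 0 in 30, and in no pair did the interval lie below 0. Otx2 and Dnmt3b had an interval above 0 in 6 of 6 libraries and Pou3f1 in 1 of 6.

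**Figure D2:**
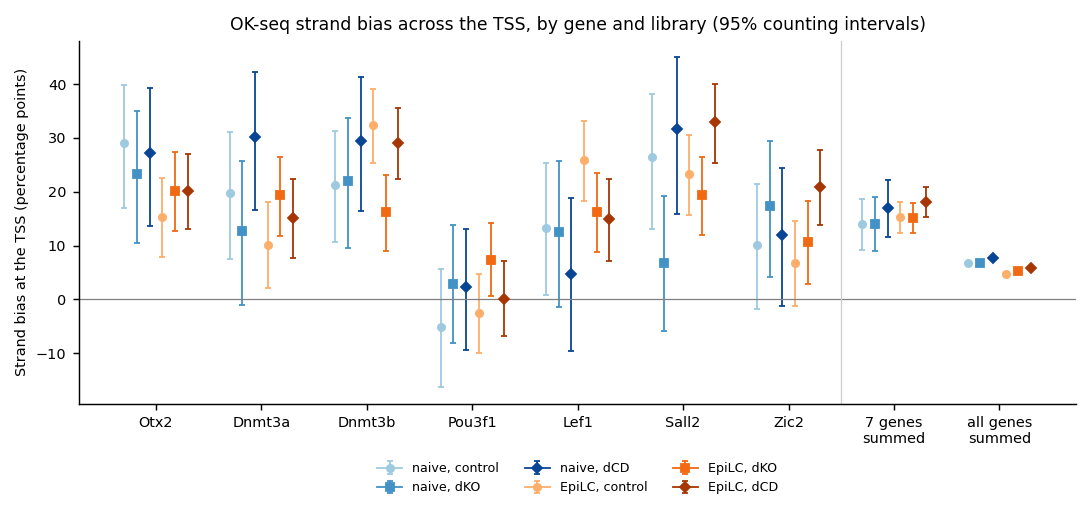
Strand bias at the TSS (percentage points, vertical axis) of each of the 7 genes, of the 7 genes added up and of 20950 genes added up, with one point per library and bars for the 95% counting interval. Pou3f1 lies between -5.17 and 7.42 points, while the other genes are above 0 in every library.

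Otx2 had a strand bias of 29.0, 23.2 and 27.2 points in the naive control, dKO and dCD and of 15.3, 20.2 and 20.2 in the EpiLC libraries. The 3 naive values lay above the 3 EpiLC values, an order that was not counted over all genes. EpiLC minus naive was -13.7 points (-26.9 to 0.34) in the control, the lowest of the 7 genes there, and its interval reached 0. The GENCODE start of Otx2 lies 8.71 kb upstream of the start of its principal transcript, and around the latter the difference was -17.7 (-31.0 to -3.66), so the call for Otx2 depends on which start is used. The steepest rise within 100 kb of Otx2, measured with 25 kb on each side, lay 33.2 to 38.2 kb upstream of the GENCODE start in 4 of 6 libraries.

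Pou3f1 had the lowest strand bias of the 7 genes in 6 of 6 libraries, and only the EpiLC dKO had an interval above 0. Its strand bias was -5.17, 2.93 and 2.25 points in the naive control, dKO and dCD and -2.56, 7.42 and 0.123 in the EpiLC libraries. Forks crossed the gene mainly against the direction of transcription on both sides, and the steepest rise lay 45.2 to 63.2 kb downstream in 5 of 6 libraries. The starts of Fhl3 and Sf3a3, on the same strand, lie 43.9 and 58.0 kb downstream of the Pou3f1 start, and that of Utp11, on the other strand, 36.8 kb downstream.

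Sall2 had a strand bias of 26.5, 6.86 and 31.6 points in the naive control, dKO and dCD and of 23.4, 19.3 and 33.0 in the EpiLC libraries. The naive dKO was the low one. The steepest rise lay within 10 kb of the TSS in 4 of 6 libraries. Zic2 had 10.1, 17.4 and 11.9 points in naive libraries and 6.71, 10.7 and 20.9 in EpiLC libraries, with an interval above 0 in 3 of 6. The divergent gene Zic5 starts 9.76 kb upstream of Zic2, and the co-directional share was already 53.3 to 65.6% upstream of Zic2.

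Lef1 had a strand bias of 13.4, 12.5 and 4.79 points in naive libraries and 25.9, 16.3 and 14.9 in EpiLC libraries, and each EpiLC value was above the naive value of its genotype. The differences were 12.6 (-1.70 to 27.1) in the control, 3.82 in the dKO and 10.1 (-5.90 to 26.2) in the dCD, and none was called. The control difference at Lef1 became called with windows of 100 kb (12.6, 2.29 to 23.0), without the T minus A part (15.5) and with shares rescaled to equal swing (20.3). Dnmt3a had 19.7, 12.7 and 30.2 points in naive libraries and 10.2, 19.3 and 15.1 in EpiLC libraries, and its steepest rise lay within 10 kb of the TSS in 4 of 6 libraries. Dnmt3b had 21.2, 22.0 and 29.5 points in naive libraries and 32.4, 16.2 and 29.1 in EpiLC libraries. EpiLC minus naive at Dnmt3b in the control was 11.2 (-1.09 to 23.7), and it too became called with windows of 100 kb (9.92), without the T minus A part (13.2) and with rescaling (20.8). In the EpiLC control, 99.8% of the 20950 genes had a lower strand bias than Dnmt3b.

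For single genes at these settings, none of the 7 was called between states in any genotype. Over all genes the called shares were 3.89% up and 8.47% down in the control, 3.40% and 6.65% in the dKO and 3.63% and 8.53% in the dCD. With 7 genes, shares of this size correspond to less than 1 gene in each direction, so the count of 0 was near the background. Beside those of Otx2, Lef1 and Dnmt3b in the control, other settings gave 6 calls. With windows of 25 kb Dnmt3a was at 24.0 points in the dKO and -28.7 in the dCD, and with windows of 100 kb Dnmt3b was at 10.5 and Pou3f1 at -12.03 in the dCD. With rescaling Sall2 was at 16.4 in the dKO and Zic2 at 12.42 in the dCD. The median difference of the 7 genes was -3.12 points in the control, 3.82 in the dKO and -0.446 in the dCD.

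**Figure D3:**
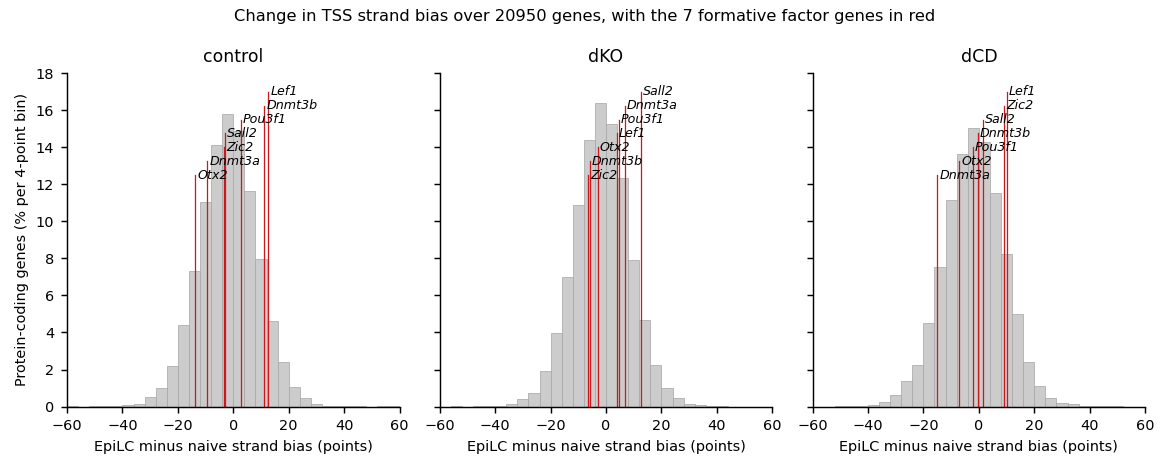
Histograms of EpiLC minus naive strand bias at the TSS (percentage points, horizontal axis) over 20950 protein-coding genes, as the percentage of genes in each 4-point bin, for the control, dKO and dCD, with the 7 formative factor genes as red lines whose height only separates the labels. The 7 genes lie between -15.1 and 12.6 points, inside the bulk of all genes in each genotype.

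Between mutant and control, 5 of the 28 comparisons of single genes were called. In naive libraries, Sall2 was lower in the dKO, at 6.86 against 26.5 points, a difference of -19.6 (-36.9 to -1.30). Called shares over all genes for dKO minus control were 3.87% up and 3.68% down in naive libraries. For naive dCD minus control they were 4.74% up and 3.28% down, and none of the 7 genes was called. The interval of Sall2 reached 0 with windows of 25 or 100 kb and without the T minus A part.

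In EpiLC libraries, Dnmt3b was lower in the dKO, at 16.2 against 32.4 points in the control, a difference of -16.3 (-26.0 to -6.31). Of the 20950 genes, 0.678% had a lower difference. In the dCD, Dnmt3b had 29.1 points, a difference that was not called. The dKO and dCD comparisons share the control library. The interval for Dnmt3b left out 0 under each alternative except libraries thinned to the smallest one, with -10.5 (-27.9 to 7.13), and the difference was -8.78 with windows of 100 kb. Pou3f1 was higher in the dKO, at 7.42 against -2.56 points, and its difference of 9.98 (0.0186 to 19.9) was 0.0220 with windows of 100 kb. The Pou3f1 call was kept in 3 of 7 alternatives, and was lost too without the T minus A part, with shares rescaled to equal swing and after thinning. Called shares over all genes were 4.37% up and 3.16% down, against 1 of 7 in each direction.

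In the EpiLC dCD, Zic2 was higher, at 20.9 against 6.71 points in the control, a difference of 14.2 (3.72 to 24.7). This call held under all 7 alternatives run on it, with values from 12.2 to 28.8. Lef1 was lower in the dCD, at 14.9 against 25.9 points, a difference of -11.01 (-21.6 to -0.319), and its interval reached 0 with windows of 25 or 100 kb and after thinning. Called shares over all genes were 5.42% up and 2.86% down, again against 1 of 7 in each direction.

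The direction in which forks crossed Pou3f1 and Lef1 differed between the naive and EpiLC libraries by more than counting error. The co-directional share over the 50 kb on both sides of the TSS together and over the 50 kb after the gene end were added as measures once the profiles had been seen, as was the sum over genotypes, so their values and intervals describe a pattern already seen and are no test of it. With strand bias at the TSS and the share over the gene body they make 4 measures.

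**Figure D4:**
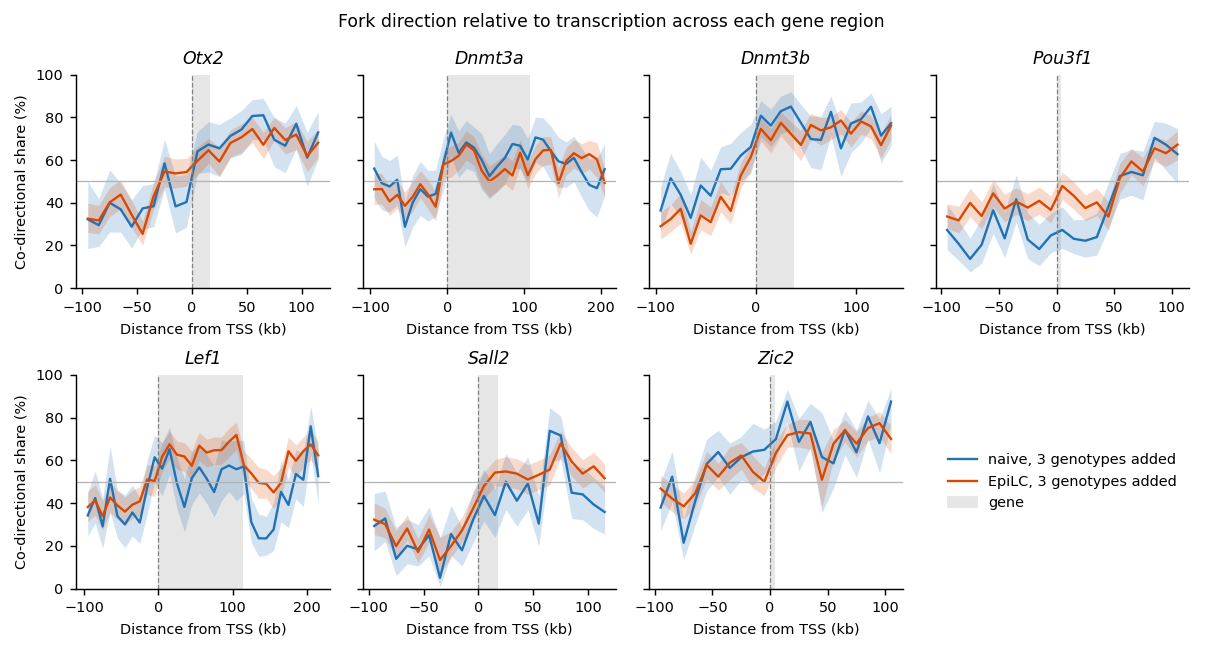
Co-directional share (%, vertical axis) in 10 kb windows across the region of each of the 7 genes by distance from the TSS (kb), from 100 kb before the TSS to 100 kb after the gene, with the 3 genotypes of a state added up, shading for the 95% counting interval and a grey block for the gene. The naive and EpiLC lines separate around Pou3f1, after the end of Lef1 and upstream of Dnmt3b.

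Pou3f1 was crossed against its direction of transcription in naive cells and less so in EpiLCs. Within 50 kb of its TSS the co-directional share was 27.1% (22.0 to 32.8), 26.2% (21.1 to 32.1) and 26.6% (21.5 to 32.5) in the naive control, dKO and dCD. In the EpiLC libraries it was 40.6% (37.0 to 44.3), 36.4% (33.1 to 39.8) and 42.2% (38.7 to 45.7). The intervals of the 3 naive and the 3 EpiLC libraries did not overlap, and how many of all genes show the same was not counted. EpiLC minus naive was 13.6 points (6.75 to 19.8) in the control, 10.1 (3.41 to 16.3) in the dKO and 15.5 (8.71 to 21.8) in the dCD. Farther out, 50 to 100 kb downstream and beyond the rise near Fhl3 and Sf3a3, the share was 60.1% in naive and 59.3% in EpiLC libraries with the genotypes added. With shares rescaled to equal swing, the dKO interval at Pou3f1 reached 0 and the other 2 did not. Over all alternatives the differences ran from 7.56 to 19.4 in the control, 6.43 to 16.6 in the dKO and 9.80 to 18.1 in the dCD.

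Dnmt3b moved the other way in 2 of 3 genotypes. The share within 50 kb of its TSS was 72.8% for naive and 55.5% for EpiLC control cells, a difference of -17.3 points (-23.5 to -10.6). In the dKO it was 68.9% and 58.2%, a difference of -10.7 (-17.5 to -3.41), and in the dCD it was 63.6% and 63.7%. With windows of 100 kb the difference was -9.48 in the control, still called, and -3.91 in the dKO, where the call was lost. The gene Dnmt3c, a close relative of Dnmt3b, starts 47.2 kb downstream, and how reads from sequence shared by both genes were placed is not given in the sources used here.

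Around the TSSs of the 7 genes, the share was called up for Pou3f1 and Sall2 and down for Dnmt3b in the control, where the shares over all genes were 8.95% up and 12.3% down. In the dKO it was called up for Pou3f1 and Lef1 and down for Dnmt3b (all genes 7.10% and 8.43%), and in the dCD up for Pou3f1 and down for Dnmt3a (all genes 13.3% and 15.1%). Several of these calls were frail. That for Sall2, 8.74 points (0.742 to 16.2), was lost without the T minus A part or with shares rescaled to equal swing. That for Dnmt3a, -8.35 (-15.9 to -0.396), was kept in 1 of 7 alternatives and was -0.162 with windows of 25 kb. At Lef1 in the dKO the difference of 12.41 points turned to -0.266 with windows of 25 kb.

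The rise at Lef1 in the dKO started from a low naive value. Within 50 kb of its TSS the share was 55.2%, 39.7% and 44.5% in the naive control, dKO and dCD and 54.5%, 52.1% and 51.7% in the EpiLC libraries. In naive libraries dKO minus control was -15.5 points (-24.7 to -6.02) and dCD minus control -10.7 (-20.1 to -1.09), and both calls were lost with windows of 25 kb only. These 2 comparisons share the naive control, and the dKO change between states shares the naive dKO library.

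Of 28 mutant differences in this share, 4 were called, those 2 of Lef1 and 2 of Dnmt3b. Dnmt3b in the dCD differed from the control by -9.12 points (-17.5 to -0.739) in naive libraries, which turned to 1.57 with windows of 100 kb and was called in 4 of 7 alternatives, and by 8.20 (3.15 to 13.2) in EpiLC libraries, a call kept in all 7 alternatives. Called shares over all genes in naive libraries were 4.98% up and 5.60% down for the dKO and 10.1% and 10.5% for the dCD. In EpiLC libraries they were 7.32% and 6.14% for the dKO and 12.2% and 10.6% for the dCD.

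Among the 4 measures, the largest called change between states was at Lef1, and it lay at the far end of the gene. In the 50 kb after the gene end the co-directional share was 30.5% (23.2 to 38.9), 29.3% (21.2 to 38.9) and 28.8% (21.02 to 38.2) in the naive control, dKO and dCD. In EpiLCs it was 50.9% (45.1 to 56.6), 47.8% (42.3 to 53.3) and 53.7% (48.3 to 59.0). Every naive library was below every EpiLC library and the intervals did not overlap. How many of all genes separate by state in this way was not counted. The differences were 20.4 points (10.2 to 29.7), 18.5 (7.43 to 28.2) and 24.8 (14.0 to 34.3). With windows of 25 kb the dCD difference was 12.7 (-2.79 to 27.3) and its call was lost. In the control and dKO the calls held under all 6 alternatives, from 11.9 to 26.6 and from 14.2 to 24.5.

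The end of Lef1 was a place where the co-directional share fell in all 6 libraries. Strand bias across the gene end was -22.4, -23.2 and -23.5 points in the naive control, dKO and dCD and -14.5, -16.7 and -12.9 in the EpiLC libraries, and each interval lay below 0. The steepest fall of the region lay 109 to 135 kb from the TSS, around the end of the 114 kb gene. A fall of this kind is what meeting forks give. Hadh, the nearest gene after Lef1, runs toward it from a start 162 kb downstream of the Lef1 TSS.

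Of the 7 genes, Lef1 and Pou3f1 were called up after the gene end in all 3 genotypes, and for the short Pou3f1 this window is nearly the one downstream of its TSS. The Pou3f1 call was lost in the control after thinning, in the dKO without the T minus A part or with rescaling, and in the dCD with windows of 100 kb or rescaling. Its differences were 13.7, 11.1 and 12.2 points in the control, dKO and dCD, and ran over the alternatives from 7.45 to 15.5 in the control, 7.89 to 24.5 in the dKO and 5.72 to 15.3 in the dCD. Otx2 was called down in the control, at -14.8 points (-23.2 to -5.09), a call lost with windows of 25 kb and a value of -7.75 with windows of 100 kb. Zic2 was called down in the dKO, at -13.3 (-23.3 to -1.68), a call kept in 2 of 6 alternatives and a value of -4.63 with windows of 100 kb. Over all genes the called shares were 7.65% up and 8.88% down in the control, 5.50% and 6.95% in the dKO, and 9.48% and 11.0% in the dCD. These shares are per genotype. How many of all genes were called up in all 3 genotypes was not counted for any measure.

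Of 28 mutant differences after the gene end, 2 were called, both in the EpiLC dCD. Dnmt3a had 66.8% against 56.5% in the control, a difference of 10.2 points (2.88 to 17.4) that stayed called in all 6 alternatives, from 6.92 to 20.9 after thinning. Otx2 had 72.6% against 63.6%, a difference of 9.01 (1.956 to 15.96), and its call was kept in 3 of 6. All genes gave 9.04% up and 7.29% down there, and 5.37% and 5.03% in the EpiLC dKO. In naive libraries they gave 4.73% and 4.26% for the dKO and 7.89% and 6.52% for the dCD.

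**Figure D5:**
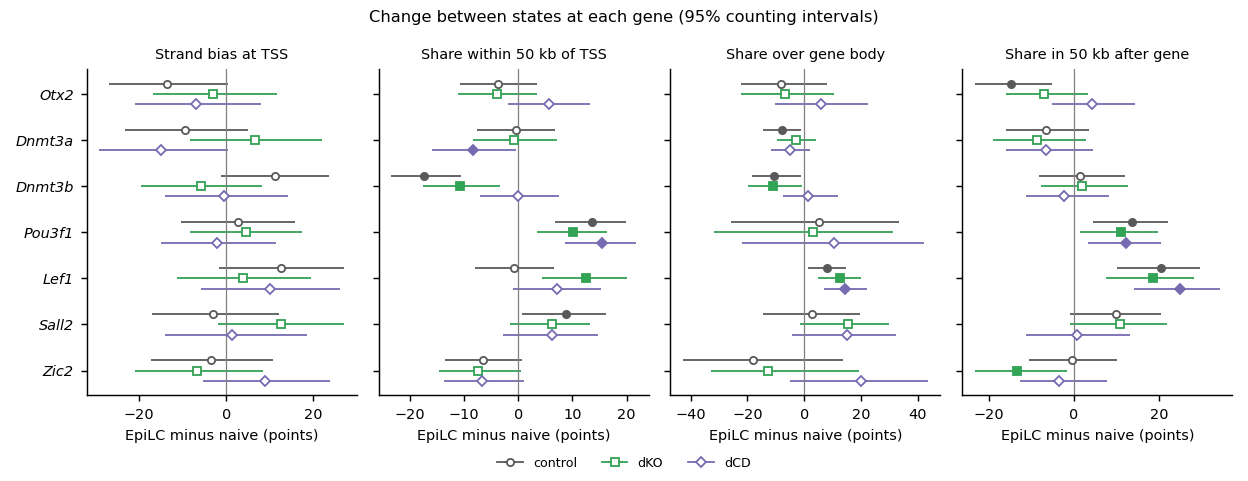
EpiLC minus naive differences (percentage points, horizontal axis) of the 7 genes in strand bias at the TSS, co-directional share within 50 kb of the TSS, share over the gene body and share in the 50 kb after the gene end, for the control, dKO and dCD, with 95% counting intervals and filled symbols where the interval leaves out 0. No symbol is filled for strand bias, while Lef1 is filled in all 3 genotypes for the gene body and after the gene.

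Over the gene bodies, forks moved with transcription at Dnmt3b and Dnmt3a and became more co-directional at Lef1 in EpiLCs. The body share of Dnmt3b was 84.5%, 78.8% and 77.6% in the naive control, dKO and dCD and 74.1%, 67.7% and 79.0% in the EpiLC libraries, with every interval above 50%. EpiLC minus naive at Dnmt3b was -10.5 points (-18.3 to -1.19) in the control and -11.1 (-19.9 to -0.763) in the dKO. Dnmt3a had 65.2%, 59.7% and 64.9% in naive libraries and 57.3%, 56.9% and 59.8% in EpiLC libraries. Its difference in the control was -7.92 points (-14.5 to -1.05). The calls for Dnmt3a and Dnmt3b were lost without the T minus A part or with shares rescaled to equal swing, and that for Dnmt3a also after thinning.

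The body share of Lef1 was 58.7% (52.9 to 64.3), 50.8% (43.8 to 57.7) and 49.0% (42.3 to 55.8) in naive libraries. In EpiLC libraries it was 66.6% (63.1 to 70.0), 63.2% (59.9 to 66.5) and 63.5% (59.99 to 66.9). Each EpiLC library was above all 3 naive libraries, an order that was not counted over all genes. The differences were 7.90 points (1.27 to 14.6), 12.5 (4.80 to 20.1) and 14.5 (6.84 to 22.0) in the control, dKO and dCD. After rescaling to equal swing they were 12.8, 15.0 and 14.6. Thinning to the smallest library ended the call in the control, at 2.84, and in the dKO.

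Sall2 and Otx2 bodies held 29 to 158 reads, and the bodies of Pou3f1 and Zic2 only 8 to 42. Otx2 lay between 58.1% and 70.0% and Sall2 between 33.3% and 53.2%. No difference between states was called for these 4 bodies within a genotype. With genotypes added, Sall2 went from 38.9% to 50.3%, a difference of 11.4 points (1.09 to 21.1). Dnmt3a, Dnmt3b and Lef1 were also called in that sum, which gave 2 bodies up and 2 down. The sum was not computed over all genes.

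Over the 7 bodies, 1 was called up and 2 down between states in the control, where 16615 genes gave 5.29% up and 12.5% down. Those genes held 10 reads or more over the body in all libraries, a minimum that Pou3f1 did not meet. In the dKO 1 was called up and 1 down (all genes 4.79% and 8.37%), and in the dCD 1 was called up (all genes 7.69% and 13.5%). Against the control, 2 of 28 body differences were called. Lef1 was lower in the naive dCD, by -9.69 points (-18.5 to -0.742), where all genes gave 7.79% up and 6.95% down. Zic2 was higher in the EpiLC dCD, by 26.4 (4.05 to 45.3) on 36 and 37 reads, a call lost after thinning (16.7), where all genes gave 9.52% up and 6.70% down. None was called for naive dKO minus control (all genes 4.03% up and 5.23% down) or EpiLC dKO minus control (6.11% and 4.69%).

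With the 7 bodies added up, the co-directional share was 64.5%, 58.5% and 59.4% in the naive control, dKO and dCD and 62.4%, 60.1% and 64.2% in the EpiLC libraries. In naive libraries dKO minus control was -5.96 points (-10.99 to -0.913) and dCD minus control -5.07 (-10.1 to -0.0343). Between states the dCD rose by 4.77 (0.521 to 9.08), while the control gave -2.10 (-6.03 to 1.92) and the dKO 1.59 (-2.65 to 5.90). In EpiLC libraries dKO minus control was -2.27 (-5.21 to 0.684) and dCD minus control 1.79 (-1.17 to 4.75). These sums depended on single genes. Without Lef1 the dCD change was 0.315 points and the control change was -7.76 (-12.6 to -2.76). The naive dKO difference lost its call without Dnmt3a, Lef1 or Sall2, and the naive dCD difference without any one of Otx2, Dnmt3b, Lef1, Sall2 or Zic2.

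Read density over the regions of the 7 genes differed between libraries by ratios of 0.833 to 1.17. Reads relative to the library total from 100 kb before to 100 kb after each gene gave EpiLC to naive ratios of 0.938 to 1.16 in the control, against 0.853 to 1.16 for the middle 90% of all genes. Sall2 had the highest, 1.16 (1.05 to 1.29), and Otx2 1.13 (1.02 to 1.25). Sall2 in the dCD was at 0.844 of the control in naive and 0.833 in EpiLC libraries, where the medians of chromosome 14 were 0.944 and 0.950. For these ratios the middle 90% of all genes ran from 0.835 to 1.19 in naive and from 0.847 to 1.13 in EpiLC libraries. Only the EpiLC value of Sall2 lay outside. Lef1, at 0.863 of the control in the EpiLC dCD, lay inside, and the median of chromosome 3 there was 0.923. Pou3f1 was at 1.17 (1.04 to 1.32) of the control in the naive dCD, and its EpiLC to naive ratio in the dCD was 0.865 (0.783 to 0.956). Both lay inside the middle 90% of all genes, which for the latter was 0.805 to 1.16. Lef1 was at 0.873 (0.783 to 0.973) of the control in the naive dKO, inside the middle 90% of all genes (0.867 to 1.15). The median of chromosome 3 there was 0.937. The part of read density in the fork measures was not tested.

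A pair of lists put the 7 genes beside related ones, 20 other formative or primed genes and 20 naive pluripotency genes, all 20 of each measured. In the control the median strand bias of the 7 genes was 19.7 points in naive and 15.3 in EpiLC libraries. It was 15.7 and 14.6 for the other formative genes, 18.9 and 11.3 for the naive genes and 6.11 and 4.43 for all genes. The order of the lists was not the same in each library. In the naive dKO the medians were 12.7 for the 7 genes, 19.4 for the other formative genes and 15.3 for the naive genes, and in the naive dCD 27.2, 13.6 and 25.9. In EpiLCs they were 16.3, 12.5 and 8.77 in the dKO and 20.2, 18.4 and 13.8 in the dCD. Between states in the control, the other formative genes had 1 call up and 2 down, with Tcf15 highest, at 16.3 points (2.12 to 29.7), and Dnmt3l, the cofactor of the de novo methyltransferases, lowest, at -23.8 (-37.1 to -9.51). The naive genes had 1 call up and 5 down, with Esrrb, a nuclear receptor of the naive network, highest, at 20.7 (5.83 to 35.1), and the X-linked Nr0b1 lowest, at -30.1 (-53.7 to -3.95).

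In the dKO the other formative genes had 1 call up and 4 down and the naive genes 0 up and 6 down, and in the dCD they had 2 and 2 and 0 and 8. The naive genes had 25%, 30% and 40% called down in the control, dKO and dCD, against the 8.47%, 6.65% and 8.53% of all genes. Median differences of the naive genes were -6.08, -4.59 and -7.31 points. Their median strand bias in naive libraries was above that of all genes in each genotype. The lists were not rescaled to equal swing, so the part of the lower swing of the EpiLC libraries in these counts was not tested. Against the control, the other formative genes had 1 call up and 0 down in the naive dKO, 0 and 3 in the naive dCD, 1 and 2 in the EpiLC dKO and 2 and 1 in the EpiLC dCD. The naive genes had 0 and 0, 3 and 0, 1 and 2, and 1 and 0. In the same order all genes gave 3.87% up and 3.68% down, 4.74% and 3.28%, 4.37% and 3.16%, and 5.42% and 2.86%.

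The gene with the profile most like each of the 7, by Pearson r over 120 values (20 windows in 6 libraries), was Cenpf for Otx2 (r = 0.81), D17Wsu92e for Dnmt3a (0.69), G3bp1 for Dnmt3b (0.82), Rbbp8nl for Pou3f1 (0.75), Ccnl1 for Lef1 (0.67), Atox1 for Sall2 (0.80) and Hadhb for Zic2 (0.73). The values share libraries and overlap in what sets them, so r is a description, chosen as the highest of 13823 to 13865 genes.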

How the data were processed

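OK-seq was measured in 12 samples, 2 replicates in each of 6 conditions. According to the methods and the submitters' processing notes, the authors used FastQC, Trim Galore, Bowtie2 and Picard, aligned reads to mm10 (hg19 is also listed), and binned Watson and Crick reads. The authors deposited 1 file per condition, replicates summed, with read density as signal per bp in 2725511 bins of 1 kb. All values were whole multiples of 0.001 to within rounding, and 1000 times a value is its number of reads. The bin position was read as the end of a bin, since 0 reads then fell in the 74135 bins of N only, against 3045 as a start. In all, 83 bins above 10 times the median were left out. GENCODE M21 gave the genes. Python 3.11.15, numpy 2.4.6, pandas 2.3.3 and matplotlib 3.10.9 were used, and the measures were tested on simulated data. The rule for the 7 genes uses gene names alone, but the genes, the lists and the tests were chosen with earlier results of these data known. All 7 genes are named. In each list the gene with the largest rise and the one with the largest fall between states in the control are named, and for each of the 7 the most similar gene. Alternatives were windows of 25 and 100 kb, the bins kept, the T minus A part taken off (slopes 1.21 to 1.82), means, each gene left out, equal amplitude, principal transcripts, libraries thinned to the smallest (seed 1) and a minimum of 20 reads.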

Additional observations from a re-analysis of the deposited data

How the results depend on the processing

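No paired analysis was possible because the 2 replicates of each condition are summed in 1 file, and no replicate could be left out. That limit holds for pairs made by replicate number only. The naive and EpiLC libraries do pair within a genotype, and a test of state over those pairs was not run. Of 685 values under alternatives, 663 stayed within the counting interval of the value reported or, for counts, within 1.5 times of it. Such a value could still lose its call or change its sign. The total also includes density ratios with the bins kept, which hardly moved. For the summed strand bias, EpiLC minus naive kept its sign in 10 of 15 alternatives in the control (-3.11 to 5.83), 13 in the dKO and 10 in the dCD. Naive dKO minus control kept it in 7 (-4.35 to 2.04) and dCD in 13, and EpiLC dKO minus control in 9 and dCD in 14, with -1.14 after rescaling to equal amplitude. It gained a call for the dCD between states after rescaling (5.68), for naive dCD minus control with windows of 100 kb (5.10), and for EpiLC dCD minus control with windows of 100 kb (4.13) or without Lef1 (5.09). Between states, the summed body share without Lef1 was -7.76 in the control, -3.54 in the dKO and 0.315 in the dCD, and 10.4 in the dCD without Dnmt3a. For EpiLC dKO minus control it was 0.843 as a mean over genes, and for EpiLC dCD minus control 8.06 as a mean, 4.92 after thinning and -1.46 after rescaling, with a call as a mean and without Lef1 (4.60). The share around the TSS turned to -0.266 for Lef1 between states in the dKO with windows of 25 kb and to 1.57 for Dnmt3b in naive dCD minus control with windows of 100 kb. The naive dKO body difference kept its call in 9 of 13 alternatives, and the naive dCD one in 4 of 13. Both lost it as a mean over genes, and the dCD one also without the T minus A part, after thinning and with principal transcripts. EpiLC dKO minus control gained a call after rescaling (-4.05). The cause was not tested. A minimum of 20 reads was applied to strand bias only. It could not change the calls of the 7 genes, whose windows held 63 reads or more. Alternatives for single genes other than strand bias between states in the control, and those for one side of the TSS, were chosen after seeing the data, and single genes are limited by naive depth.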
